A study of Caenorhabditis elegans with 2 samples.

Results

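The furrow collagens are 6 cuticle collagen genes of Caenorhabditis elegans, dpy-2, dpy-3, dpy-7, dpy-8, dpy-9 and dpy-10, taken as a named list from the 19973 protein-coding genes on the nuclear chromosomes. Their binding by the zinc finger factor BLMP-1 was read from peak lists of chromatin immunoprecipitation followed by sequencing in whole L2 larvae. The animals were hermaphrodites of strain OP109, which carries the unc-119(ed3) mutation and the transgene wgIs109, so that BLMP-1 has GFP and FLAG tags at its C-terminus. There were 2 biological replicates, numbered 2 and 3, with no second genotype, stage or treatment, and the matched control library is not analysed here. The labels do not say how the 2 cultures were kept apart, and whole larvae do not show in which cells the protein was bound. For each gene all summits from 5000 bp upstream of its annotated start to its end were taken from 4 lists on the ce11 build. These were the reproducibility-thresholded list of 3060 peaks, the relaxed list of the pooled replicates (30000 peaks) and the relaxed lists of replicate 2 (19553 peaks) and replicate 3 (25142 peaks).

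The nematode cuticle is an extracellular coat made mostly of collagens, secreted by the epidermis and rebuilt at each molt. Its surface is ringed by narrow annular furrows, and these 6 collagens are needed together for them: loss of any of them removes the furrows and leaves short, dumpy animals. In C. elegans the missing furrows also switch on osmotic, detoxification and antimicrobial genes in the epidermis. BLMP-1 is the worm counterpart of mammalian PRDM1 and acts in the epidermis, and blmp-1 mutants are dumpy too.

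Of the 6 genes 5 had at least 1 thresholded summit in the window, and the exception was dpy-7. Over all protein-coding genes 19.2% had one in a window drawn in the same way. The list was chosen with earlier results of these data known, so the shares set beside it are descriptive only. Each of the 5 bound genes had a summit in the last 500 bp before its start, where 5.76% of all genes had one, and 0 of the 6 had a thresholded summit within the gene, against 3.52% of all genes. The lists give no read counts, so depth is unknown and no test was made on single peaks. Signal is the value the authors deposited for each peak, on a scale that the sources do not state. Signals of different lists are therefore set side by side only through their ranks.

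The 7 thresholded summits are given as windows of 101 bases centred on the summit, because the position of BLMP-1 at these genes is the result that the rest of the account turns on. Each is written 5′ to 3′ on the strand of the furrow collagen whose start is closest, from the RefSeq WBcel235 genome (the ce11 assembly). Capitals mark AGTGAAA or AGCGAAA on either strand, which is the core of the PRDM1 consensus without its last letter. On the opposite strand AGTGAAA reads TTTCACT.
dpy-10, 311 bp upstream (chrII:6712488-6712588, minus strand): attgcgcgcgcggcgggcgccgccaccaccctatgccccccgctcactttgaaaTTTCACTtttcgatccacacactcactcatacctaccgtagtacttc
dpy-10, 513 bp upstream (chrII:6712690-6712790, minus strand): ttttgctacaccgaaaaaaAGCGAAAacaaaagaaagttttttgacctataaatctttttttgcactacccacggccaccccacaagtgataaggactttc
dpy-2, 215 bp upstream (chrII:6714027-6714127, plus strand): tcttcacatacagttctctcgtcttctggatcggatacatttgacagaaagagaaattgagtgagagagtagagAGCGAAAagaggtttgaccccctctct
dpy-3, 186 bp upstream (chrX:2145783-2145883, minus strand): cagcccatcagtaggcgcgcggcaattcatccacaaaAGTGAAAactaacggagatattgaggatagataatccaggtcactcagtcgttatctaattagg
dpy-8, 133 bp upstream (chrX:5150559-5150659, minus strand): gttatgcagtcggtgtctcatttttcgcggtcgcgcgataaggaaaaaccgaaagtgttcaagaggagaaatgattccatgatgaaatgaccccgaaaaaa
dpy-9, 182 bp upstream (chrIV:259336-259436, minus strand): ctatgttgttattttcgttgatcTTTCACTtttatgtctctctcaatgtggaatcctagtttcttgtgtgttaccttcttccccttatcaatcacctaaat
dpy-9, 2610 bp upstream (chrIV:261764-261864, minus strand): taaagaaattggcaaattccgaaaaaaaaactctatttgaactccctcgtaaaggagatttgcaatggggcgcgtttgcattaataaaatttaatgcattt

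The strongest of these summits lay upstream of dpy-10 (WBGene00001072, chromosome II, 6710149 to 6712227, minus strand). It was at 6712538, 311 bp upstream of the start, with a signal of 120.3 and rank 242 of 3060 in the thresholded list, whose median signal was 44.7. Replicate 2 placed it at 6712527 (signal 46.1, rank 281 of 19553) and replicate 3 at 6712550 (signal 79.4, rank 195 of 25142). Both replicates thus put it among the strongest peaks of their own list, with summits 23 bp apart. The same peak, 484 bp wide, held a second summit 202 bp farther from dpy-10, at 6712740, with a signal of 53.3 and rank 1143.

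That second summit was the one on which the replicates differed most. Replicate 3 had it at 6712752 with a signal of 54.7 and rank 425, or 1.69% of the way down its list. Replicate 2 had it at 6712731 with a signal of 3.64 and rank 11575, which is 59.2% of the way down. Among the 2806 nuclear thresholded summits with a summit of each replicate within 100 bp, 50 (1.78%) stood beyond 50% of the list of replicate 2. Both summits of this peak lay in an intron of T14B4.19, a protein-coding gene that overlaps dpy-10 on the same strand and starts farther upstream. The second was closer to the start of T14B4.19 (191 bp) than to that of dpy-10 (513 bp), so the lists cannot give it to either gene. The first was closest to the start of dpy-10 (311 bp), which does not assign it to that gene either.

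The gene dpy-2 (WBGene00001064, chromosome II, 6714292 to 6715971, plus strand) faces dpy-10 head to head, with 2065 bp between their starts. The summit nearest to it was at 6714077, 215 bp upstream, with a signal of 57.5 and rank 1011. Its rank was 2413 in replicate 2 (signal 13.6) and 902 in replicate 3 (signal 37.5), and the replicate summits were 34 bp apart. This summit fell in an exon of T14B4.13, a short noncoding RNA gene annotated just before dpy-2. All 3 thresholded summits between the 2 starts lay in the windows of both genes, at 1754, 1552 and 215 bp from dpy-2 and at 311, 513 and 1850 bp from dpy-10. They were counted once for the family.

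At dpy-8 (WBGene00001070, chromosome X, 5148804 to 5150476, minus strand) a single thresholded summit lay 133 bp upstream, at 5150609, with a signal of 64.5 and rank 824. Replicate 2 had it at 5150625 (signal 22.3, rank 1176) and replicate 3 at 5150601 (signal 44.04, rank 661). The thresholded peak was narrow, at 84 bp, where the most common width in that list was 336 bp. In the relaxed lists the peak was 336 bp wide in replicate 2 and 320 bp in replicate 3. It was the only summit of the pooled relaxed list in the whole 6673 bp window of dpy-8. No other peak therefore accompanied the one at the start in that list.

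At dpy-3 (WBGene00001065, chromosome X, 2144605 to 2145647, minus strand) the pattern was much the same. One thresholded summit at 2145833, 186 bp upstream, had a signal of 54.6 and rank 1095, in a peak of 132 bp. It ranked 961 in replicate 2 (signal 24.9) and 1314 in replicate 3 (signal 30.2), with 16 bp between the replicate summits, the smallest distance of the 7. Its peak was 336 bp wide in replicate 2 and 320 bp in replicate 3. The other 2 summits of the pooled relaxed list in this window were weak, with signals of 4.29 and 4.78, and lay in or near the neighbouring gene npax-2.

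The weakest start-proximal summit was that of dpy-9 (WBGene00001071, chromosome IV, 257403 to 259204, minus strand). It was at 259386, 182 bp upstream, with a signal of 31.3 and rank 2526, below the median signal of the thresholded list. Replicate 2 ranked it 4974 (signal 7.63, summit 259369) and replicate 3 ranked it 2019 (signal 22.6, summit 259314), with summits 55 bp apart. A stronger summit (signal 43.9, rank 1571) lay 2610 bp upstream at 261814, in the gap between pqbp-1.1 and pat-6, and was only 131 bp from the start of pqbp-1.1. It ranked 3140 in replicate 2 and 1858 in replicate 3, so neither dpy-9 summit was among the 3060 strongest peaks of replicate 2 and both were among those of replicate 3.

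No thresholded summit was found for dpy-7 (WBGene00001069, chromosome X, 7536467 to 7537792, minus strand), whose promoter is widely used to drive transgenes in the worm epidermis. In the pooled relaxed list it had a summit 217 bp upstream with a signal of 2.76, rank 29014 of 30000, and another 4124 bp upstream with a signal of 8.03, rank 11668. The first lay in the 3′ UTR of glb-16, which ends 16 bp before dpy-7 on the same strand, and neither replicate listed it. Replicate 2 listed a single summit for dpy-7, within a coding exon 523 bp after the start (signal 4.77, rank 8581). Replicate 3 likewise listed a single one, 4121 bp upstream (signal 4.87, rank 12604), in an intergenic stretch closer to the start of glb-16. The replicates thus shared no summit at dpy-7. The absence of a listed peak at unknown depth gives no limit on how much BLMP-1 was there.

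**Figure D1:**
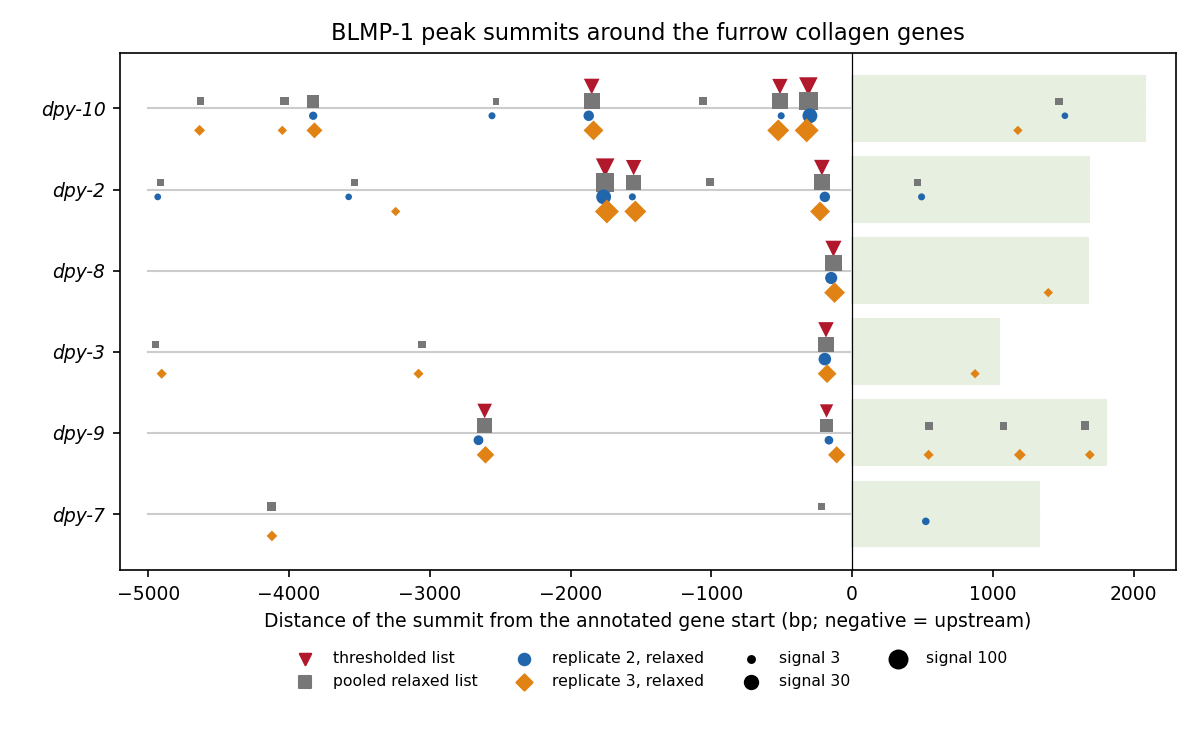
Position of every summit (x axis, bp from the annotated gene start, negative upstream) for the 6 furrow collagens, with marker shape for the list and marker area growing with signal; signals are comparable within a list only. Shaded boxes are the genes, drawn to scale. In 5 rows a thresholded summit sits between 133 and 311 bp upstream, while the dpy-7 row has none; the 3 thresholded summits of dpy-10 and of dpy-2 are the same peaks seen from either gene.

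Across the family the replicates placed the summits close together. All 7 thresholded summits had a summit of each replicate within 100 bp, as did 92.6% of all 3031 nuclear thresholded summits, and 6 of the 7 had both within 50 bp, against 73.6%. The median distance between the replicate summits was 24 bp for these 7 and 28 bp over the 2806 such pairs in all. The thresholded list is described as selected for reproducibility, so recurrence in both replicates is not independent support. All 7 summits had the same rank in it as in the pooled relaxed list. Being listed therefore does not show that each peak passed a replicate check of its own. The second dpy-10 summit and the dpy-9 summit near the start ranked lowest in replicate 2, at 59.2% and 25.4%, while the remaining summits ranked at 16.1% or better in both lists.

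**Figure D2:**
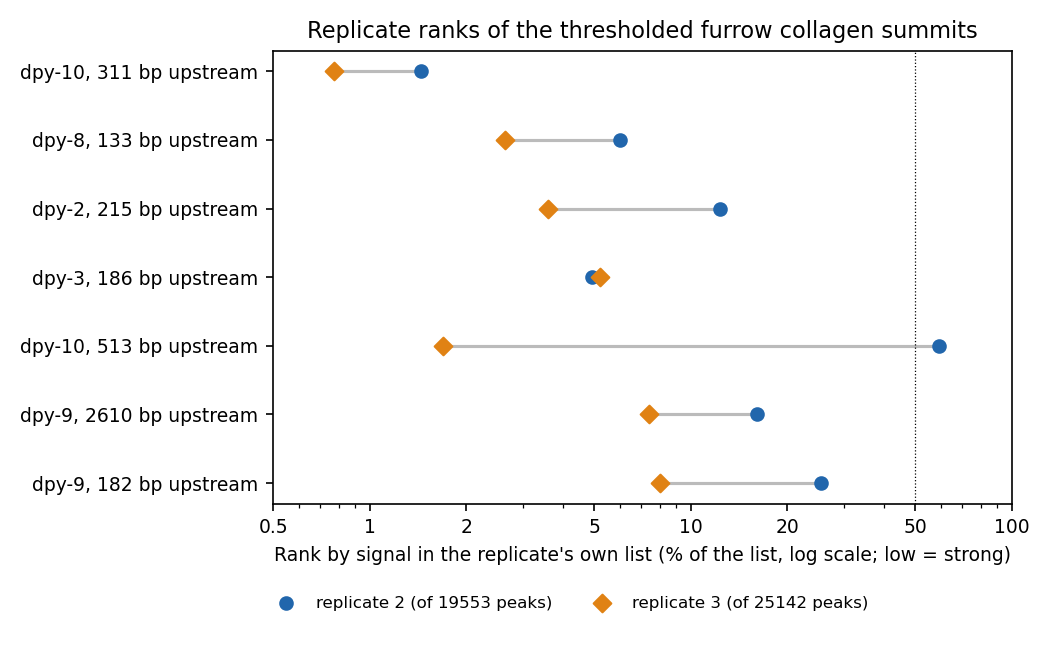
Rank by signal of the 7 thresholded summits in the relaxed list of each replicate, as a percent of that list (log axis, low is strong; the dotted line marks 50%). The first dpy-10 summit is at 1.44% in replicate 2 and 0.776% in replicate 3, and the second dpy-10 summit is at 59.2% and 1.69%.

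The relaxed lists hold background as well as peaks, and in them all 6 genes had a summit in the window. That carries little information, since 65.9% of all genes had one in the pooled list, 63.8% in that of replicate 2 and 68.1% in that of replicate 3. Within the genes themselves the pooled list gave 5 summits with signals from 2.96 to 6.47, at dpy-2, dpy-9 and dpy-10. Replicate 2 gave 3, with signals up to 4.77, and replicate 3 gave 6, with signals up to 6.67. At dpy-9 the pooled list and replicate 3 each had 3 such summits and replicate 2 had none. The strongest peak that missed the thresholded list lay 3829 bp upstream of dpy-10 at 6716056, past the end of dpy-2. Its pooled signal was 25.9 (rank 3213), just under the lowest thresholded signal of 27.1, and it ranked 5915 in replicate 2 and 2896 in replicate 3.

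The windows of the 6 genes together covered 33.8 kb, with overlaps counted once. They held 0.207 thresholded summits per kb, against 0.0302 per kb over the nuclear genome. In the pooled relaxed list the density was 0.622 per kb against 0.299 per kb over the genome. In replicate 2 it was 0.355 against 0.195 per kb, and in replicate 3 it was 0.562 against 0.25 per kb. These windows are mostly upstream sequence, unlike the genome as a whole, and 7 summits give a coarse density.

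Gene length sets part of the window, and the furrow collagens are not long. Their median length was 1676 bp, against 2027 bp for all protein-coding genes. Among the 10245 genes no longer than dpy-10, the longest of the 6, 15.3% had a thresholded summit in the window. At least 2 were present at dpy-2, dpy-9 and dpy-10, which is 3 of 6 genes, against 4.60% of all genes, but dpy-2 and dpy-10 owe this to the same peaks. With the strongest 3060 peaks of replicate 3 alone the 5 genes were the same, against 18.8% of all genes. With those of replicate 2 alone dpy-9 dropped out, which left 4 genes, against 18.9% of all genes. Within 500 bp upstream the counts were the same 5 and 4 genes, against 5.41% of all genes for replicate 3 and 5.51% for replicate 2. In the stronger 1530 thresholded peaks 4 genes kept a summit, again without dpy-9, against 10.3% of all genes. With the window drawn tightly around any transcript start (1000 bp before it and 200 bp after it) 5 genes had one, against 8.85% of all genes.

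The members were also set beside the other cuticle collagens. Of 170 other cuticle collagens, taken as the col-numbered genes and 14 further genes named for body shape mutants, 56 (32.9%) had a thresholded summit in the window, against 5 of 6 furrow collagens. In the last 500 bp before the start 25 of them (14.7%) had one, again against 5 of 6. Among the 14 body shape collagens alone the counts were 5 in the window and 1 near the start. The strongest summits of those 14 were at bli-1 (signal 129.9, 2779 bp upstream and closest to the start of col-80), rol-6 (97.7, 2569 bp), sqt-3 (39.7, 587 bp) and lon-3 (30.4, 4817 bp, closest to the start of ogdh-2). No set test was run, so these counts describe the lists and do not show that they differ.

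Ordered by the strongest summit in the window, 61 cuticle collagens had a thresholded one. The dpy-10 summit, which dpy-2 shares, came after those of col-73 (signal 172.1) and of bli-1 with col-80. The furrow collagens dpy-8, dpy-3 and dpy-9 followed in places 16, 19 and 31.

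**Figure D3:**
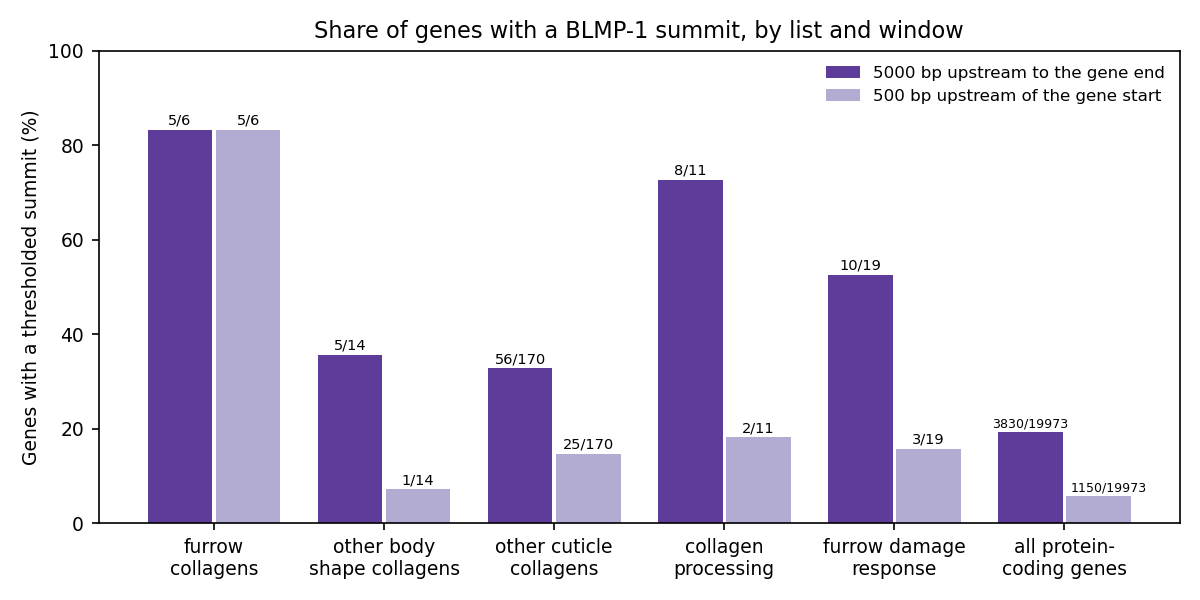
Percent of genes with a thresholded summit (y axis) in the window from 5000 bp upstream to the gene end (dark bars) and in the 500 bp upstream (light bars), for the furrow collagens, 4 other gene lists and all protein-coding genes, with counts above the bars. The 2 bars of the furrow collagens are equal at 5 of 6, and in the other groups the light bar is lower than the dark one. The other body shape collagens are also counted among the other cuticle collagens.

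Each of the 5 bound furrow collagens had a summit near its start, while the second dpy-10 summit (513 bp) and the far dpy-9 summit (2610 bp) lay farther out and closer to other genes. The nearest upstream summits were at 133, 182, 186, 215 and 311 bp, with a median of 186 bp. Over the 3370 protein-coding genes with a thresholded summit in the 5000 bp upstream the median was 1242 bp, the lower quartile 288 bp and the upper quartile 2938 bp, and 896 of them (26.6%) had it within 311 bp. Over the 56 other cuticle collagens with such a summit the median was 775 bp, and 18 of them had it within 311 bp. Annotated starts in the worm are approximate because many transcripts are trans-spliced, so these distances are measured to the annotation and not to the site where transcription begins.

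**Figure D4:**
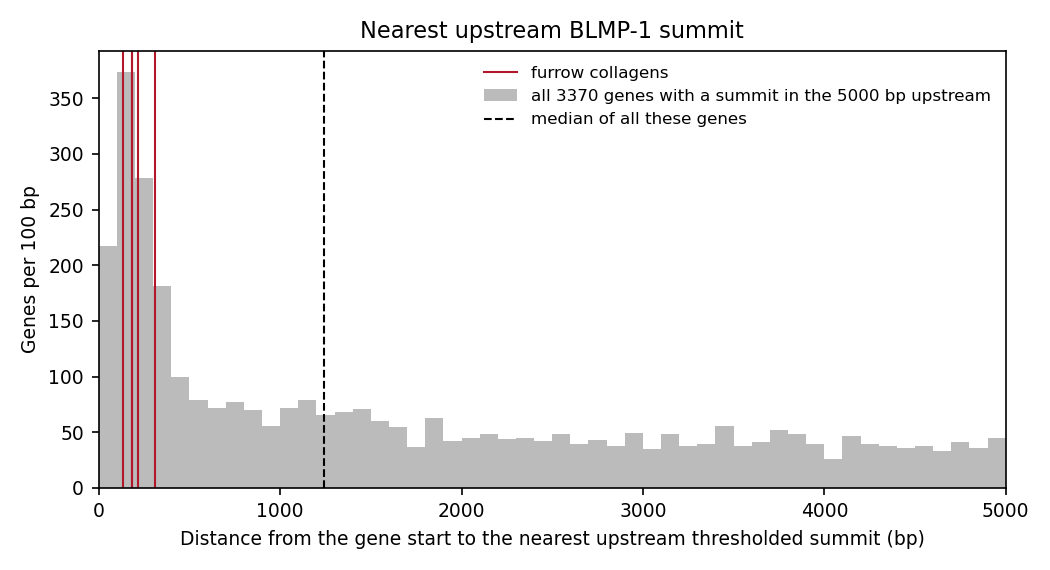
Distance from the gene start to the nearest upstream thresholded summit for all 3370 genes with one in the 5000 bp upstream (grey, genes per 100 bp; dashed line, median of 1242 bp), with the 5 bound furrow collagens as red lines. The red lines stand at 133 to 311 bp, where the grey distribution also peaks; those at 182 and 186 bp overlap.

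The windows printed above were searched on both strands for a short list of words. The full PRDM1 core, AGTGAAAG or AGCGAAAG, was in 1 of the 7 windows (14.3%, exact Clopper-Pearson 95% interval 0.361 to 57.9, which covers counting only), against 7.09% of the 3031 nuclear summit windows. That match was at dpy-9, in the summit 182 bp upstream. The interval treats the 7 windows as independent, although both dpy-10 windows come from the same peak. AAGTGAAA, which overlaps the core by all but 1 letter, was in 3 of 7, at dpy-3, dpy-9 and the stronger dpy-10 summit, against 8.71% of all windows. It began 14 bp before the summit at dpy-3 and 27 bp before it at dpy-9, and 4 bp after it at dpy-10.

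The shorter AGTGAAA or AGCGAAA, singled out after these windows were seen, was in 5 of 7 and in 17.3% of all summit windows. The summits of dpy-8 and the far summit of dpy-9 had neither form. At dpy-3, the near dpy-9 summit and the stronger dpy-10 summit, the AGTGAAA copies lie within the AAGTGAAA copies above. The counts of these words are therefore not separate. AGACGCAG was in 0 of 7, against 8.05% of all windows, and GAGAGAGA was in 1 of 7, at dpy-9, against 9.11%. The GATA-type words AGATAA or TGATAA, of the kind read by epidermal GATA factors, were in 3 of 7 windows, against 19.8% of all. The windows ranged in GC content from 32.7% at the far dpy-9 summit to 57.4% at the stronger dpy-10 summit, around a median of 43.6% over all summit windows.

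The promoters of the 6 genes, from 250 bp before to 50 bp after the start, were searched in the same way, which brings in dpy-7. AGTGAAA or AGCGAAA was in 4 of the 6 promoters, those of dpy-2, dpy-3, dpy-9 and dpy-10. Either form was in 15.5% of the 19973 promoters of that length. The matches at dpy-3 and dpy-9 and the AGCGAAA match at dpy-2 are the same copies as in the summit windows. Only the AGTGAAA matches at dpy-2 and dpy-10 lay outside those windows. Since the word was also singled out after the windows were seen, the promoter count is not a separate line of evidence. The promoter of dpy-7 held neither form, and nor did that of dpy-8, which had a summit. GATA-type words were in 3 of 6, at dpy-3, dpy-7 and dpy-9, against 44.6% of all promoters. A match of letters is a description and does not show a bound site.

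Further lists cover what surrounds these collagens in the animal. Of 11 genes for collagen folding, cross-linking and cleavage 8 had a thresholded summit in the window and 2 had one in the last 500 bp, against 19.2% and 5.76% of all genes. The strongest were those of the procollagen protease gene dpy-31 (signal 323, 677 bp upstream), dpy-11, a thioredoxin-like protein gene (158.4, but closest to the start of mdh-1), doxa-1, which matures the oxidase BLI-3 (118.6), and the prolyl hydroxylase gene dpy-18 (112.1). The 11 genes were long, with a median of 5095 bp against 1676 bp for the furrow collagens, and longer genes have longer windows. In each of the 8 the strongest summit lay in the 5000 bp upstream of the start. Whether gene length bears on the count was not tested.

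Of 19 genes that act in the response to furrow damage 10 had a summit in the window and 3 had one in the last 500 bp, against the same 19.2% and 5.76% of all genes. The strongest were at sta-2 (signal 75.3, 124 bp upstream), elt-3 (72.4, within the gene), sek-1 (58.5, 1841 bp upstream) and skn-1 (50.5, within the gene). These encode a STAT-like factor, an epidermal GATA factor, a MAP kinase kinase and a detoxification regulator. The median length of all 19 genes was 3126 bp.

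Widening the window to 10000 bp upstream added 1 thresholded summit, 8381 bp before dpy-3 at 2154028 (signal 28.98), which was closer to npax-2. At the 5000 bp limit itself the nearest summits inside and outside were both weak and both upstream of dpy-3. Each was closer to the start of npax-2 than to that of dpy-3. The pooled list had one at 4950 bp (signal 4.29) and replicate 3 had one at 5110 bp (signal 2.06).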

How the data were processed

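Binding of tagged BLMP-1 in L2 larvae was taken from 4 deposited peak lists on ce11. Per the file descriptions, the authors made relaxed lists from single replicates and from both pooled, and a list thresholded for reproducibility. The deposited signal is the authors' own value. The deposited −log10 q values reached a ceiling of 3.98 in the thresholded list and were not used for ranking. No source used here names the peak caller or the threshold.

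A summit was the peak start plus the deposited offset, and 3 summits that fell past the peak end were moved to it. Genes came from Ensembl release 115 (WBcel235, the ce11 assembly), and no peak passed a chromosome end. All coordinates are 1-based. Only the 19973 nuclear protein-coding genes form the comparison, and each gene with a summit in its own window counts. No test was run: there is 1 group with 2 replicates and no read counts. The members, gene lists and words were chosen with earlier results of these data known. Named genes were the members, protein-coding genes nearest to or holding their thresholded summits, and up to 4 members of each other list by strongest summit; other genes were named after their values were seen. Other windows, the stronger 1530 peaks, each replicate alone, nearest-start assignment and other word windows were tried. Window counting was tested on simulated data. Python 3.11.15, NumPy 2.4.6, pandas 2.3.3, SciPy 1.17.1 and matplotlib 3.10.9 were used.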

Additional observations from a re-analysis of the deposited data

How the results depend on the processing

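The count of 5 furrow collagens with a thresholded summit was the same with windows of 1000 bp upstream to 200 bp downstream, 2000 bp and 10000 bp upstream, with the gene body left out and with nearest-start assignment. It was 4 in the stronger 1530 peaks, without dpy-9, and 4 to 5 with a single replicate. The 7 summits numbered 5 to 8 across the other windows, the stronger 1530 peaks and nearest-start assignment, and 4 to 8 with a single replicate. The lower value, 4, came from replicate 2 alone, in which dpy-9 and the second dpy-10 summit were lost, and the cause was not tested. The share of windows with the PRDM1 core was 0% within 25 bp of the summit, 14.3% within 100 bp and 71.4% for the core without its last letter, which was chosen after the data were seen. The strongest signal at dpy-2 was 57.5 in the narrowest window, and that at dpy-9 was 31.3 there and with 2000 bp upstream. No paired analysis was possible because there is 1 group. Depth is unknown, so weak peaks at dpy-7 cannot be weighed.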

Other observations

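Among 8-letter words shared by the furrow collagen windows, CCGAAAAA was in 3 of 7, at the weaker dpy-10 summit, at dpy-8 and at the far dpy-9 summit, and in 0.924% of all 3031 summit windows and 4.53% of all promoters. It was singled out after the windows were seen, and 2 of these 3 windows are those without AGTGAAA or AGCGAAA.

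Beyond the 5000 bp limit upstream of dpy-7, a pooled relaxed summit at 7546572 on chromosome X had a signal of 26.9 (rank 3088), which is under the lowest thresholded signal of 27.1. It lay 237 bp from the start of the collagen gene col-174 and 8780 bp from dpy-7, and ranked 2542 in replicate 2 and 4363 in replicate 3.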
